A study of Mus musculus with 148 samples.

Results

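NK Xcl1 cells were one of 2 natural killer (NK) cell groups that the study's authors had named among lung and tumor immune cells, and they were taken here as the wells with that name in the deposited cell annotation. There were 198 of them, which was 7.89% of the 2510 NK cells and 0.845% of the 23425 annotated immune cells. The remaining 2312 NK cells carried the name NK Ncr1. NK Xcl1 cells were found in 46 of 63 samples, a sample being 1 tissue of 1 mouse, and 14 samples held at least 5 of them.

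All mice were female PA-GFP C57BL/6 animals, which carry a photoactivatable green fluorescent protein. Apart from the Control mice, they had received EO771-tdTomato breast cancer cells in the mammary gland at 8 weeks of age, and tumors were resected 3 weeks later in the mice followed for metastasis. The groups were Control lung, Pre-MET lung and Primary tumor from mice still bearing the tumor, Relapse-free lung, and, from mice with lung metastases, Distal normal lung, whole metastasis-bearing tissue (MET), MET core and Invasive margin. MET core and Invasive margin cells were sorted as CD31-negative cells photoactivated under the microscope (3 MET core plates also for CD45), whereas Control, Pre-MET, Primary tumor, Distal normal and MET cells were sorted as CD31-negative CD45+ cells. Relapse-free plates came from 3 gates: 14 from CD31-negative CD45+ cells, 7 from photoactivated CD31-negative cells and 8 from CD31-negative CD45+ cells without photoactivation signal. The model uses 1 transplanted cell line, and only mice of 1 sex were studied.

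NK cells are innate lymphocytes that kill stressed or transformed cells with perforin and granzymes, and their activity is set by a balance of activating and inhibitory receptors. XCL1 is a chemokine that attracts type 1 conventional dendritic cells through the receptor XCR1, and NK cells are a known source of it in tumors. Mouse NK cells are often ordered from immature forms, which keep genes such as Ltb and Tcf7, to mature circulating forms with Klrg1, Ly49 receptors, Gzma and Prf1, while tissue-resident NK cells and type 1 innate lymphoid cells (ILC1) form further states.

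Of the genes that separated the NK Xcl1 cells from the NK Ncr1 cells, Xcl1 itself and Gzma, the granzyme gene with the most UMIs in these cells, are shown with their upstream sequence. Both are on the minus strand of the GRCm38 mouse genome, Xcl1 at chr1:164931644-164935527 and Gzma at chr13:113093825-113100981. The 250 bases before the RefSeq transcript start, read 5′ to 3′ on the gene's strand, lie at chr1:164935523-164935772 and chr13:113100982-113101231 of GRCm38.p6. Capitals mark the letters GGTGTGA, a T-box half-site, and TGTGGT or its reverse complement ACCACA, a Runx motif, both searched on both strands.
Xcl1: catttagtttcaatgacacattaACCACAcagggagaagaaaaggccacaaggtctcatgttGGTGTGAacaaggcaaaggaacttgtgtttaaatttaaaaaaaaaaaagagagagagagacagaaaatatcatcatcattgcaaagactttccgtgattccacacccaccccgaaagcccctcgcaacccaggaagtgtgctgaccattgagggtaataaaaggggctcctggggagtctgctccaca
Gzma: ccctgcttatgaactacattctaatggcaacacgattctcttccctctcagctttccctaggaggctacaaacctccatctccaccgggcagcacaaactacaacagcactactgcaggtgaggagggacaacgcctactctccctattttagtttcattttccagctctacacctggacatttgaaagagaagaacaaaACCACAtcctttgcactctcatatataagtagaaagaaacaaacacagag
The Xcl1 window held 1 match to each motif, and the Gzma window held 0 matches to the T-box half-site and 1 to the Runx motif. Over 32851 mouse promoter windows of this kind, 3.33% held the T-box half-site and 14.0% the Runx motif.

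The name of the cells was set beside the levels of Xcl1 and Ncr1, the gene for the NK activating receptor NKp46. Levels are given in CPM, the counts of unique molecular identifiers (UMIs) of a gene scaled to the same total in the summed cells of each sample. Xcl1 averaged 3285 CPM ± 4284 (SD, n = 14 samples) in NK Xcl1 cells and was the highest of the 27 populations. It averaged 1293 ± 2670 (n = 23) in T CD8 Lag3 cells, 318 ± 293 (n = 56) in NK Ncr1 cells and 230 ± 265 (n = 54) in T CD8 Gzmk cells. The SD of the first 2 populations exceeded their means, so their neighbouring places in this order differ by less than the spread between samples. NK Xcl1 cells held 28.6% of all Xcl1 UMIs of immune cells and the more numerous NK Ncr1 cells 27.2%. Without the 1 cell with the most Xcl1 UMIs, left out after seeing the counts, these were 22.4% and 29.5%.

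Not every NK Xcl1 cell carried the chemokine transcript. An Xcl1 UMI was seen in 108 of 198 cells, 54.5% with an exact Clopper-Pearson 95% interval of 47.3 to 61.6, which like the other intervals here covers counting error only. The share was 9.00% in NK Ncr1 cells and 0.569% in B cells, which should lack it. Median depth was 1337 UMIs per cell in NK Xcl1, 986.5 in NK Ncr1 and 1001 in B cells. After each cell was thinned to 500 UMIs the shares were 37.4%, 6.10% and 0.284%. A single cell held 308 of the 1103 Xcl1 UMIs, and the 10 cells with the most held 52.4% of them.

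Ncr1 averaged 488 CPM ± 342 (n = 14) in NK Xcl1 cells, below the 1026 ± 420 (n = 56) of NK Ncr1 cells and above the 195 ± 263 (n = 16) of T CD8 Gzma cells. An Ncr1 UMI was seen in 30.8% of NK Xcl1 cells, 41.0% of NK Ncr1 cells and 0.758% of B cells. After thinning these were 18.2%, 28.4% and 0.190%. Both names carried their markers, with Ncr1 lower than in the other NK group. The names come from clustering and marker genes in these same counts, so this is a description and no independent check. Xcr1, the receptor for XCL1, was highest in cDC1 dendritic cells at 105 CPM ± 143 (n = 18), against 11.1 ± 29.6 (n = 14) in NK Xcl1 cells.

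**Figure D1:**
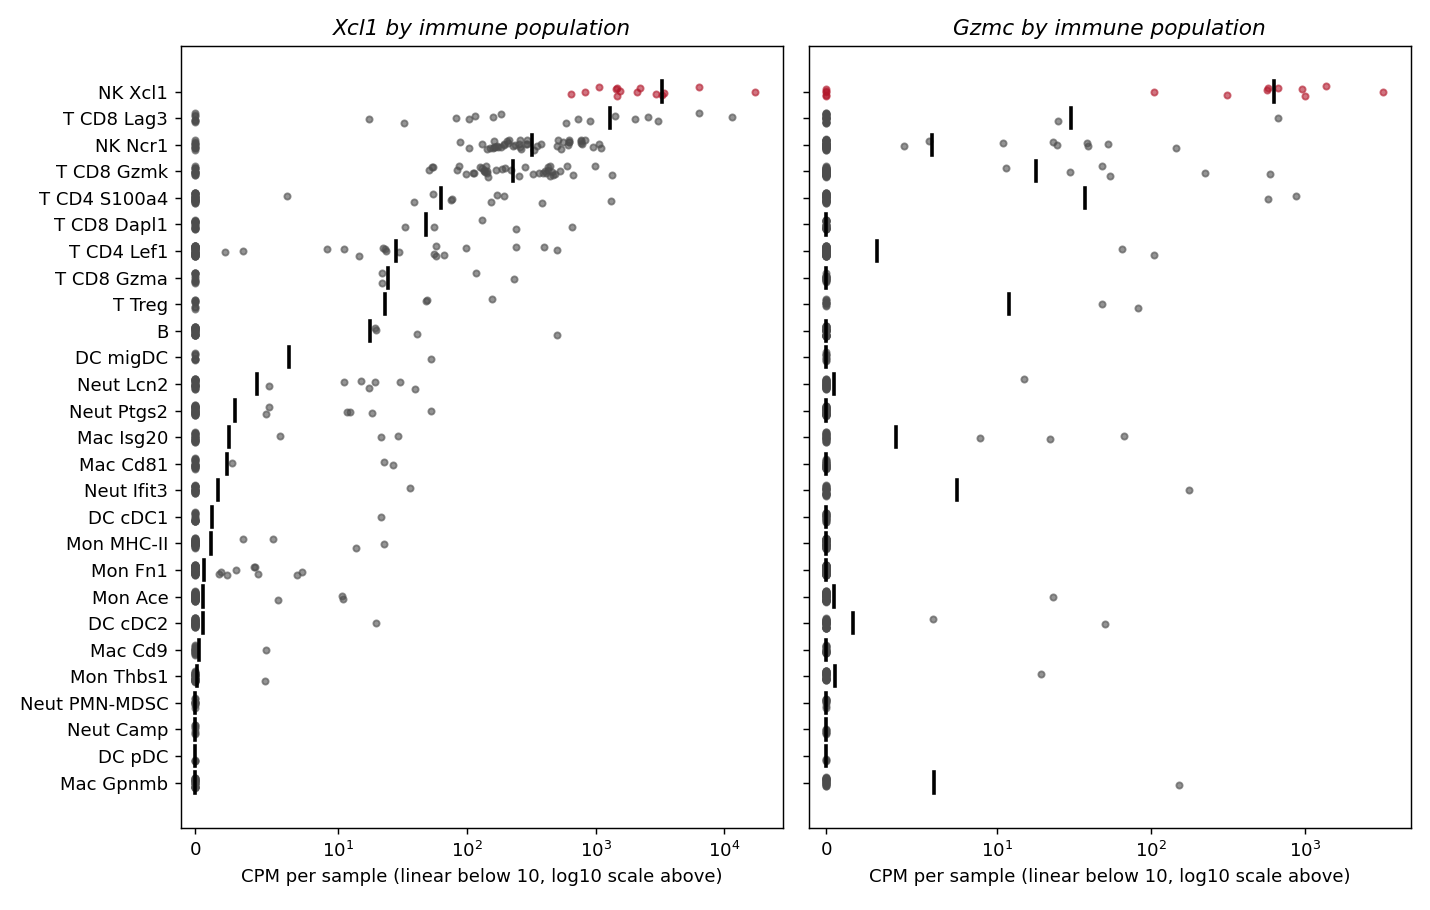
Levels of Xcl1 and Gzmc in 27 annotated immune populations, ordered by mean Xcl1. Each point is 1 sample with at least 5 cells of the population, bars are means, and the CPM axis is linear below 10 and logarithmic above. NK Xcl1 samples (red) lie between 646 and 17269 CPM for Xcl1, and 5 of them are at 0 for Gzmc.

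T cell receptor complex transcripts were also present. A Cd3d, Cd3e or Cd3g UMI, from the subunits of CD3, was seen in 42 of 198 NK Xcl1 cells (21.2%), in 6.62% of NK Ncr1 cells, in 2.94% of B cells and in 92.2% of T CD8 Lag3 cells. At 500 UMIs per cell these shares were 14.1%, 3.94%, 1.42% and 80.1%. All 14 T cell markers examined had at least 1 UMI in NK Xcl1 cells. Their summed level was 623 to 4575 CPM over 13 samples, against 0 to 2736 CPM in the NK Ncr1 cells of those samples, and pooled over all cells it was 2348 CPM against 11861 CPM in T CD8 Lag3 cells. Tyrobp, the adaptor of activating NK receptors, was at 2394 CPM in the pooled NK Xcl1 cells, 4643 in NK Ncr1 and 137 in T CD8 Lag3 cells. Fcer1g, another such adaptor, was at 2117, 3574 and 191 CPM. The whole list of 14 NK identity genes separated these cells less, with sums of 16522, 26386 and 12070 CPM. The part of T cells in the results was not tested beyond leaving out the cells with a CD3 UMI, an alternative chosen after these counts were seen.

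The first comparison asked where the NK Xcl1 cells were found. Their share of all NK cells was computed for samples with at least 10 NK cells. It was 1.85%, 0.775% and 2.52% in the 3 Control lungs, and 8.70%, 0% and 0% in the 3 Pre-MET lungs of mice 8, 9 and 10. The 2 zeros rest on 32 and 10 NK cells, which allow shares of up to 9.38% and 30.0% (3 cells). Relapse-free lungs had 0.935% to 12.5% with a mean of 3.55% ± 4.45 (SD, n = 6), and Distal normal lungs 0% to 9.09% with a mean of 3.61% ± 3.37 (n = 7).

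Higher shares were found in tumor-bearing tissue. MET samples had 0% to 17.4% with a mean of 10.1% ± 6.40 (n = 8), and MET core samples 0% to 39.3% with a mean of 17.3% ± 12.8 (n = 11). The 5 Invasive margin samples had 4.31%, 11.5%, 13.8%, 54.5% and 10.3% in mice 17, 28, 31, 33 and 36. The 2 Primary tumor samples had 50% and 69.2% in mice 10 and 38. With the limit set at 5 NK cells, all 4 Primary tumor samples entered, from 50% to 83.3% with a mean of 64.9% ± 14.6. Among samples with at least 10 NK cells, only Invasive margin mouse 33 lay within the Primary tumor range, and MET, MET core and Invasive margin overlapped with Distal normal.

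**Figure D2:**
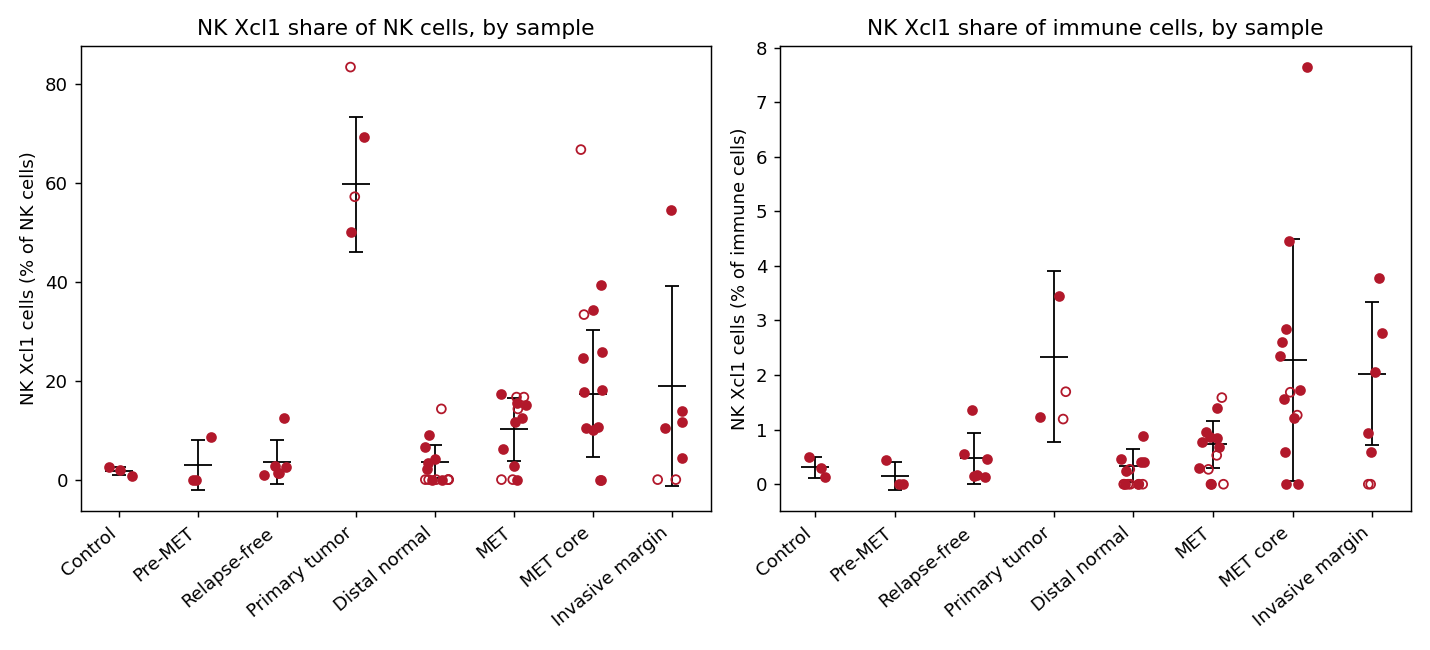
NK Xcl1 cells as a percentage of NK cells (left) and of all annotated immune cells (right). Each point is 1 sample; filled points have at least 10 NK cells and open points fewer, and bars give the mean ± SD of the filled points. Primary tumor is highest as a share of NK cells (59.6%) but near MET core as a share of immune cells (2.34% and 2.27%).

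NK Xcl1 cells made up a larger share of NK cells in MET core than in Distal normal lung, by 13.7 percentage points (two-sided exact permutation test, p = 0.0143, Benjamini-Hochberg adjusted p = 0.0429 over 9 comparisons). Within the 7 mice with both tissues, MET core was higher by 18.1 points ± 14.9 (SD), in 6 of 7 mice, with an exact sign-flip permutation p = 0.0313 and an adjusted p = 0.156. With samples of at least 5 NK cells the difference was 15.4 points (exact permutation test, adjusted p = 0.00360). At that limit it was 16.8 points within 11 mice, higher in 9 and lower in 2 (exact sign-flip permutation p = 0.00586). The difference at the limit of 10 NK cells was 3.75, 16.04, 0.363 and 35.2 points within the 4 sequencing batches that held both tissues. Leaving out mouse 17, 25, 28, 30, 34 or 36 moved the adjusted p of the exact test above 0.05, to at most 0.129, with differences of 11.4 to 15.5 points over all such removals. The call was also lost with all immune cells as the denominator, as a log2 ratio to NK Ncr1 cells, with cells of at least 1000 UMIs and without the cells that had a CD3 UMI (adjusted p of the exact test 0.104, 0.0653, 0.238 and 0.0604). The difference itself was 32.1 points with cells of at least 1000 UMIs, in 4 against 3 samples. So few samples leave an exact test little room to pass after adjustment. Without the cells that had a CD3 UMI the difference was 15.0 points. The sort gate also differed between these tissues, and its part in the difference was not tested.

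The photoactivation label of the Invasive margin of mouse 17 reads NON-MET, while its status label gives the margin. All Invasive margin plates were sorted on photoactivated cells and all Distal normal plates on CD45+ cells, so gate and tissue cannot be told apart. The share in the Invasive margin exceeded that in Distal normal lung by 15.3 points (exact permutation p = 0.00505, adjusted p = 0.0429). This rested largely on 1 sample: without mouse 33 the difference was 6.38 points and the adjusted p of the exact test 0.0727. Leaving out mouse 25, 28, 30 or 36 also ended the call, with adjusted p of the exact test up to 0.0857. Without mouse 17 the difference was 19.5 points (exact test, adjusted p = 0.0429), and with samples of at least 5 NK cells it was 15.6 points (exact test, adjusted p = 0.0131). With cells of at least 1000 UMIs it was 7.26 points in 2 against 3 samples (exact test, adjusted p = 0.469). The smallest exact p for such numbers is 0.1, so it could not pass. The log2 ratio to NK Ncr1 cells did not pass (exact test, adjusted p = 0.0653). In the 3 mice with both tissues the margin was higher by 4.03 points ± 5.62 (exact p = 0.5, where the smallest possible is 0.25). Within 4 batches the difference was -2.36, 10.2, 25.1 and 6.24 points.

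MET, sorted by the same CD45+ gate as Distal normal, was above it by 6.52 points, which did not pass after adjustment (exact permutation p = 0.0354, adjusted p = 0.0797). Without mouse 24 or 27 it did pass, at 7.58 and 7.71 points (exact test, adjusted p = 0.0442 and 0.0367). With samples of at least 5 NK cells it was 6.60 points (exact test, adjusted p = 0.0301). Paired within the 11 mice with both tissues at that limit it was 5.83 points ± 9.08, higher in 8 and lower in 2, and did not pass (exact sign-flip permutation p = 0.0586). MET core, sorted by another gate, was above MET by 7.21 points (exact p = 0.164, adjusted p = 0.246), and by 11.1, 10.3 and 25.3 points within 3 batches. Paired within 8 mice this was 8.95 points (unadjusted exact sign-flip permutation p = 0.156). With at least 5 NK cells it was 10.5 points ± 15.3 within 11 mice, higher in 8 and lower in 2 (unadjusted exact sign-flip permutation p = 0.0488). MET core and Invasive margin differed by -1.57 points (exact p = 0.853). The sign turned without mouse 33 (7.34 points), without mouse 27 or 32 (0.167 points), and within the 4 mice with both tissues, where MET core was higher by 11.2 points and in 3 of 4 (exact p = 0.25, smallest possible 0.125). Without mouse 17 the difference was -4.52 points, so no direction can be given between these tissues.

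Primary tumor was above MET core by 42.3 points (exact permutation p = 0.0128, the smallest this design allows, adjusted p = 0.0429). With samples of at least 5 NK cells, 4 against 12, it was 46.3 points (exact permutation p = 0.000549, adjusted p = 0.00360). At the limit of 10 NK cells, leaving out mouse 10, 17, 25, 28, 30, 34, 36 or 38 gave an adjusted p of the exact test above 0.05, up to 0.187, with differences of 32.7 to 51.9 points over all removals. The unadjusted exact p was then the smallest possible each time, 0.0833 without mouse 10 or 38 and 0.0152 without a MET core mouse. No sequencing batch held both tissues at this cell limit, and no sort gate was shared by them. Neither batch nor gate can therefore be told apart from tissue. As a share of all immune cells the 2 tissues were at 2.34% and 2.27%, a difference of 0.0678 points (exact p = 0.949). The 4 Primary tumor samples held 1 to 8 NK Ncr1 cells each. Without the cells that had a CD3 UMI, Invasive margin was above Distal normal by 14.6 points (adjusted p of the exact test 0.0584). Primary tumor was then above MET core by 55.4 points, with too few Primary tumor samples left for a test to pass.

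Primary tumor exceeded the Pre-MET lung by 56.7 points, with an exact p = 0.1 that is the smallest possible for 2 against 3 samples. In the 3 mice with at least 5 NK cells in both tissues the tumor was higher in 3 of 3, by 60.6 points ± 12.7. These tissues shared no sequencing batch, so batch and tissue cannot be told apart. Pre-MET and Control differed by 1.18 points (exact p = 1.0, smallest possible 0.1), a sign set by mouse 8 alone, without which the difference was -1.72 points. Relapse-free and Control differed by 1.84 points (exact p = 0.667), and by 0.0472 points without mouse 29. All Control samples were in a sequencing batch of their own, so that batch and Control cannot be told apart.

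The second comparison set the NK Xcl1 cells beside the NK Ncr1 cells of the same samples. It used 13 samples with at least 5 cells of each, 127 NK Xcl1 and 994 NK Ncr1 cells, from 2 Relapse-free, 2 Primary tumor, 2 MET, 5 MET core and 2 Invasive margin samples. Mice 17 and 36 each gave more than 1 of these samples. The summed depth of a sample often differed between the names, such as 4815 against 183042 UMIs in Relapse-free mouse 6. Primary tumor mouse 38 went the other way, at 71822 against 16450. Numbers of samples at 0 are therefore not compared at equal depth below. Since the 2 names come from clustering these same cells by expression, the differences are a description and carry no test. A gene was called higher or lower where the fitted log2 fold change (edgeR) was at least 1 in size and the CPM differed in that direction in at least 80% of the samples. Of 1406 genes, 7 (0.498%) were higher and 39 (2.77%) lower in NK Xcl1 cells, and the median log2 fold change of all genes was -0.10.

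NK Xcl1 cells had more Xcl1 and Ltb and much less Ccl5 than their NK Ncr1 neighbours. Xcl1 ranged from 646 to 17269 CPM with a median of 2103 in NK Xcl1 cells, and from 0 to 1057 with a median of 287 in NK Ncr1 cells. It was higher in 13 of 13 samples, with a log2 fold change of 2.51 ± 0.27 (standard error). Ltb, which encodes lymphotoxin beta, a membrane cytokine of the tumor necrosis factor family, ranged from 0 to 2204 CPM with a median of 276, against 0 to 659 with a median of 30.2. It was higher in 12 of 13 samples, by 2.38 ± 0.49 on the log2 scale.

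Ly6a, the gene for the surface protein Sca-1 and inducible by interferon, ranged from 0 to 2233 CPM with a median of 599, against 0 to 254 with a median of 29.3. It had the largest positive change of the genes that met the rule, 2.96 ± 0.48 on the log2 scale, and was higher in 11 of 13 samples. The remaining higher genes were Serpina3g, a serine protease inhibitor, at a log2 fold change of 1.38 ± 0.37, Nhp2, a small nucleolar ribonucleoprotein subunit, at 1.04 ± 0.43, Rpsa, a ribosomal protein, at 1.03 ± 0.37, and Txn2, mitochondrial thioredoxin, at 1.02 ± 0.48. These last 3 were just above the threshold of 1 and higher in 11 of 13 samples, the fewest the rule admits. Their log2 fold changes were below 1 on leaving out some single samples, down to 0.79, 0.87 and 0.70, and under some other settings, down to 0.63, 0.70 and 0.35.

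**Figure D3:**
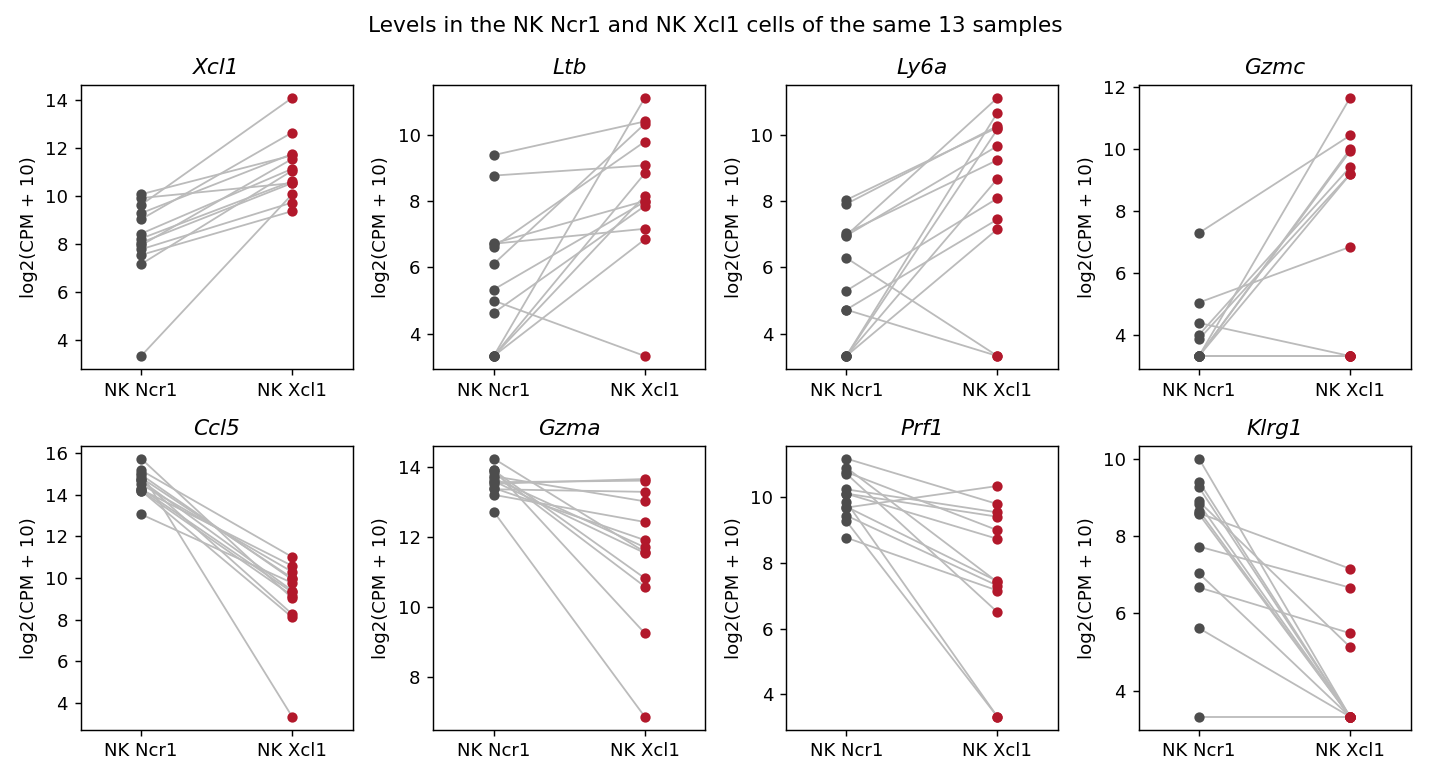
Levels of 8 genes, as log2(CPM + 10), in the NK Ncr1 and NK Xcl1 cells of the same 13 samples, with lines joining the 2 groups of a sample. Xcl1 goes up and Ccl5 goes down along all 13 lines, while Gzmc is higher in 8 samples, lower in 1 and at 0 in both groups in the others.

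Ccl5 had the second largest negative change. This chemokine attracts T cells and other leukocytes and is made by mature NK and memory T cells. It ranged from 0 to 2052 CPM with a median of 662 in NK Xcl1 cells, and from 8567 to 54912 CPM with a median of 26461 in NK Ncr1 cells, so the 2 ranges did not overlap. The log2 fold change was -5.23 ± 0.21, lower in 13 of 13 samples. A Ccl5 UMI was found in 36.4% of NK Xcl1 cells, 99.9% of NK Ncr1 cells and 20.7% of B cells, and at 500 UMIs per cell in 22.2%, 98.8% and 12.6%. Ccl4, another chemokine of effector lymphocytes, had medians of 208 and 1988 CPM and a log2 fold change of -2.61 ± 0.36, lower in 12 of 13 samples. Ccl3, its neighbour, was at -3.16 and was lower in 10 samples, short of the rule.

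Of 16 chemokine and cytokine genes, 7 entered the fit, 2 were higher (Xcl1, Ltb) and 2 lower (Ccl4, Ccl5). The shares over all 1406 genes were 0.498% and 2.77%. Ifng, the effector cytokine of NK cells, had 1 UMI in the NK Xcl1 cells of these samples, too few to compare. Lta, the partner of lymphotoxin beta, and the growth factor gene Csf1 had 0, and in the NK Ncr1 cells 2 genes of this list were also at 0.

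Of 17 genes of mature circulating NK cells, 12 were in the fit, 6 were lower and 0 higher, with a median log2 fold change of -1.86 against -0.10 for all genes. Over all 1406 genes, 2.77% were lower and 0.498% higher. Cma1, the mast cell chymase that mouse NK cells also express, was at 0 in 12 of 13 NK Xcl1 samples and at 77.5 to 733 CPM in NK Ncr1 cells. Its log2 fold change of -6.18 ± 0.80 rests on 1 UMI and ranged from -8.50 to -4.70 over the alternatives. Klrg1, an inhibitory receptor of terminally mature NK cells, had at most 133 CPM and was at 0 in 9 of 13 NK Xcl1 samples. Its median in NK Ncr1 cells was 379 CPM, and the log2 fold change was -4.33 ± 0.72. Cx3cr1, a receptor of circulating NK cells, had 0 UMIs in all 198 NK Xcl1 cells. These cells held 410956 UMIs in all, against 3190989 in all NK Ncr1 cells, so the 0 does not show a loss.

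Of 18 cytotoxic granule genes, 10 entered the fit, of which 4 were lower and 0 higher. The shares over all 1406 genes were 2.77% and 0.498%. Gzma ranged from 107 to 12859 CPM with a median of 3329 in NK Xcl1 cells, and from 6745 to 19271 with a median of 12355 in NK Ncr1 cells. It was lower in 11 of 13 samples (log2 fold change -2.05 ± 0.22). In the other two, MET core of mouse 25 and Relapse-free lung of mouse 6, the NK Xcl1 cells had more Gzma than the NK Ncr1 cells. Prf1, perforin, had medians of 164 and 1093 CPM and was lower in 12 of 13 samples (-2.04 ± 0.34).

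The other two lower granule genes were Serpinb9b at -3.33 and Serpinb9, just past the threshold, members of a family of granzyme inhibitors. Gzmb was at -0.86 and Nkg7, a granule membrane protein, at -0.99, both outside the rule. Gzmd, Gzmf and Gzmg were listed at 0 UMIs in NK Xcl1 cells, and so was Gapdh, a glycolysis gene that nearly all cells use. Reads mapping to several places were discarded, and these granzymes are close copies of each other and of Gzmc, so their values are uncertain and a 0 does not show absence.

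Gzmc went the other way in part of the samples. This granzyme is known from activated and tissue-resident cytotoxic cells. In NK Xcl1 cells it was at 965 and 571 CPM in the Primary tumor samples of mice 10 and 38, at 575 and 3206 in the Invasive margin of mice 17 and 33, and at 0 in both Relapse-free and both MET samples. The 5 MET core samples had 673, 1010, 105, 0 and 1376 CPM in mice 17, 25, 28, 30 and 36. In NK Ncr1 cells it was at 0 in 8 samples and at most 147 CPM. The log2 fold change was 4.62, with 8 samples higher and 1 lower, which is short of the rule of 11 samples.

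NK Xcl1 cells held 59.8% of all Gzmc UMIs of immune cells. A Gzmc UMI was seen in 31 of 198 NK Xcl1 cells (15.7%, exact 95% interval 10.9 to 21.5), in 0.433% of NK Ncr1 cells and in 0 of 1055 B cells, which allows a share of up to 0.284% (3 cells). At 500 UMIs per cell the first 2 shares were 10.6% and 0.303%. The positive cells came from Primary tumor (9 of 32 cells), MET (4 of 27), MET core (12 of 79) and Invasive margin (6 of 21). None was seen in 6 Control, 2 Pre-MET, 21 Relapse-free and 10 Distal normal cells, which together had a median depth of 977 UMIs per cell against 1425 in the other 159. The 21 Relapse-free cells alone allow a share of up to 14.3% (3 cells, counting error only).

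Of 27 NK receptors, 18 were in the fit, 4 were lower and 0 higher, with a median of -1.20. Over all 1406 genes, 2.77% were lower and 0.498% higher. Klra8 and Klra4, Ly49 receptors that bind MHC class I or viral ligands, were at -2.68 ± 0.53 and -2.32 ± 0.45, each lower in 12 of 13 samples. The Klra genes are near-identical copies and reads mapping to several places were discarded, so their single values are uncertain. Klrc1, the gene for NKG2A, was at -0.10, like the median of all genes, and Klrk1, the gene for NKG2D, at -0.59.

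The NK identity genes were lower in sum but present. Of 14, 13 were in the fit and 3 were lower, against 2.77% of all 1406 genes. These 3 were Ncr1 (-1.12 ± 0.31), Tyrobp (-1.03 ± 0.19) and Txk, a kinase of NK and T cells (-1.35 ± 0.35). The summed level of the 14 was 7614 to 26100 CPM in NK Xcl1 cells and 18761 to 28743 in NK Ncr1 cells, lower in 12 of 13 samples. Eomes, a T-box factor of NK cells, was at 0 in 9 of 13 NK Xcl1 samples and 1 of 13 NK Ncr1 samples. Both counts were taken at unlike summed depth, so they do not show a loss of Eomes. It reached 459 and 558 CPM in NK Xcl1 cells of the MET core of mice 25 and 28. With 10 samples lower it missed the rule (log2 fold change -2.05).

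Of 11 genes of immature NK cells, 8 were in the fit and 2 were higher, against 0.498% of all 1406 genes. The 2 were Xcl1 and Ltb, and Xcl1 is also the gene the cells are named for. The sum of the list was 2772 to 21989 CPM in NK Xcl1 cells and 1022 to 4535 in NK Ncr1 cells, higher in 13 of 13 samples. Without Xcl1, an alternative chosen after seeing these sums, it was 1561 to 4720 against 814 to 3760 CPM, higher in 10 and lower in 3. Tcf7, a transcription factor of early lymphocytes, was at 1.13 and higher in 8 of 13 samples. Of the 15 tissue-resident and ILC1 genes, 6 were in the fit and none met the rule, at a median of 1.07. In that list Tmem176b was at 3.23 and Cxcr6, a chemokine receptor of resident lymphocytes, at 2.08, with only 5 and 4 samples higher. Itga1, which encodes CD49a and marks resident NK cells, had 30 UMIs in NK Xcl1 cells and did not enter the fit.

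**Figure D4:**
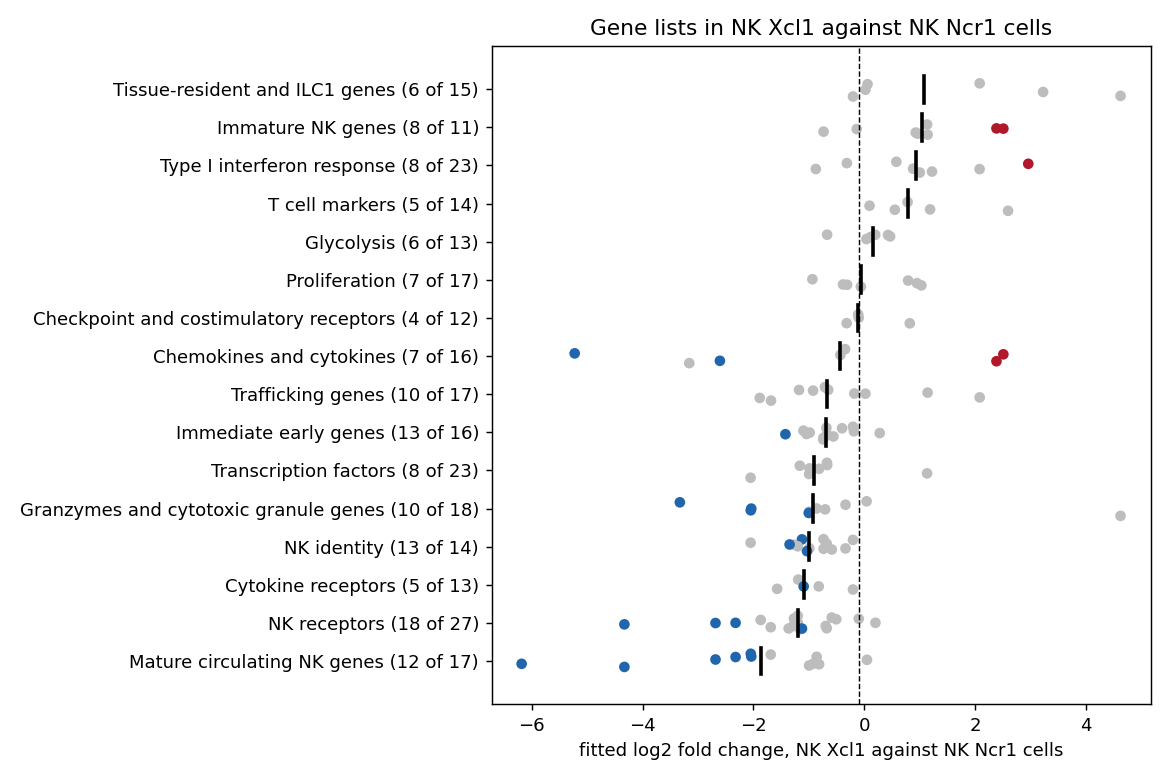
Fitted log2 fold change of the genes of 16 lists between NK Xcl1 and NK Ncr1 cells (n = 13 samples). Each point is 1 gene, red and blue points are higher and lower under the fold rule, black bars are list medians, and the dashed line is the median of all 1406 genes (-0.10). Numbers in the labels are genes in the fit of genes in the list.

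Of 23 type I interferon response genes, 8 were in the fit, at a median log2 fold change of 0.94 against -0.10 for all genes, and Ly6a alone met the rule. Their sum was 985 to 6981 CPM in NK Xcl1 cells and 439.7 to 4255 in NK Ncr1 cells, higher in 11 of 13 samples. Ifngr1, the interferon gamma receptor, was the only 1 of 5 cytokine receptors in the fit that met the rule (-1.09 ± 0.28). Ier2 was the only 1 of 13 immediate early genes that did (-1.42 ± 0.43). None of 8 transcription factors, 10 trafficking, 7 proliferation, 6 glycolysis, 5 T cell and 4 checkpoint genes in the fit met it. Il2rb, a receptor subunit for interleukins 2 and 15, was at -0.20, and Ldha, a glycolytic enzyme, at 0.43. Some genes stood in more than 1 list, such as Xcl1 and Ltb, so the lists are not separate results. Over the 23 lists, 115 of 262 different genes were in the fit, of which 3 were higher and 15 lower. Over all 1406 genes, 0.498% were higher and 2.77% lower.

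Among the 12 genes with the largest negative change were also Gimap9, a GTPase of lymphocytes (-2.23), Bcl2l11, which encodes the cell death protein BIM (-2.04), and the gene model Gm20559 (-2.15). Ahnak, a large scaffold protein, was lower in 13 of 13 samples at -1.27 ± 0.30.

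Markers of other cells varied between samples. Over the 13 samples, the B cell list summed to at most 415 CPM in NK Xcl1 cells and 293 in NK Ncr1 cells, with Cd79a at 0 UMIs. The monocyte and macrophage list summed to at most 1202 and 579 CPM (medians 350 and 300). The neutrophil list summed to at most 2298 and 2802 CPM (medians 149 and 152). The dendritic cell list reached 237 CPM in NK Xcl1 cells, with Flt3, Clec9a and Siglech at 0, and 38.8 CPM in NK Ncr1 cells. In the same order, the epithelial list reached 496 CPM, with Krt8, Krt18 and Krt7 at 0, and 78.4 CPM. The erythroid list reached 410 and 501 CPM and the endothelial list 209 and 161 CPM. The median of each of these lists was 0 in NK Xcl1 cells. Their part in the differences was not tested. Depth moved with the name: the NK Xcl1 cells had the higher median UMI count in 9 of the 13 samples.

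Counts of called genes depended on single samples. They ran from 4 to 15 higher and from 37 to 63 lower as each sample was left out in turn. Removing Relapse-free mouse 6, MET mouse 36, MET core mouse 28 or MET core mouse 30 gave 12, 14, 11 and 15 higher genes and removing Primary tumor mouse 38 gave 4. Removing MET core mouse 25 or 30 or Invasive margin mouse 33 gave 61, 63 and 62 lower genes. Without the cells that had a CD3 UMI, 9 samples remained, with 12 genes higher and 35 lower, which included 4 of the 7 higher and 23 of the 39 lower genes.

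The third comparison asked whether NK Xcl1 cells of different tissues differed in expression. It used 14 samples with at least 5 NK Xcl1 cells, 132 cells in all, in 1 edgeR quasi-likelihood fit of 546 genes. Between MET core (n = 5) and Primary tumor (n = 3), 0 genes were higher and 4 (0.733%) lower in MET core. Summed depth was 7514 to 39969 UMIs in MET core and 16107 to 71822 in Primary tumor, and the median cell of these samples had 1337 and 3406 UMIs (65 and 28 cells). The only sequencing batch with both tissues held Primary tumor mouse 8 and MET core mouse 36, and the sort gates also differed. Batch and gate were not in the fit, and their part in the calls was not tested.

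Tmsb10, which encodes the actin-binding peptide thymosin beta 10, was at 7326, 6650 and 6335 CPM in the NK Xcl1 cells of Primary tumor of mice 8, 10 and 38. In MET core it was at 1453, 2113, 942, 1597 and 1851 CPM in mice 17, 25, 28, 30 and 36. Its log2 fold change was -2.12 ± 0.48 (edgeR adjusted p = 0.00975). Without MET core mouse 28 or 30 its edgeR adjusted p was 0.0578 and 0.0550, and with no filter on low counts it was 0.0967 at a log2 fold change of -2.18. The NK Xcl1 cells of the Invasive margin spanned this whole range, at 821 CPM in mouse 17 and 7413 in mouse 33.

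The gene models Gm42418, Gm26917 and Gm3788 were also lower in MET core. Gm42418 was at 17943, 15875 and 26886 CPM in Primary tumor and at 1803, 5327, 1989, 3993 and 2327 CPM in MET core, a log2 fold change of -2.85 ± 0.46 (edgeR adjusted p = 8.4e-05). Gm26917 changed by -2.80 ± 0.47 and Gm3788 by -2.37 ± 0.49 (edgeR adjusted p = 0.00010 and 0.00277). Gm42418 and Gm26917 are known to collect reads from ribosomal RNA repeats.

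The same 4 genes were also higher in Primary tumor in other cells. Averaged over all other immune cells of the same samples, Tmsb10 was at 2142 CPM ± 304 (n = 3) in Primary tumor and 1130 ± 383 (n = 5) in MET core. In NK Ncr1 cells it was at 5106 ± 344 (n = 2) and 1322 ± 397 (n = 5). Gm42418 was at 11688 ± 5029 and 6615 ± 2367 CPM in all other immune cells.

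**Figure D5:**
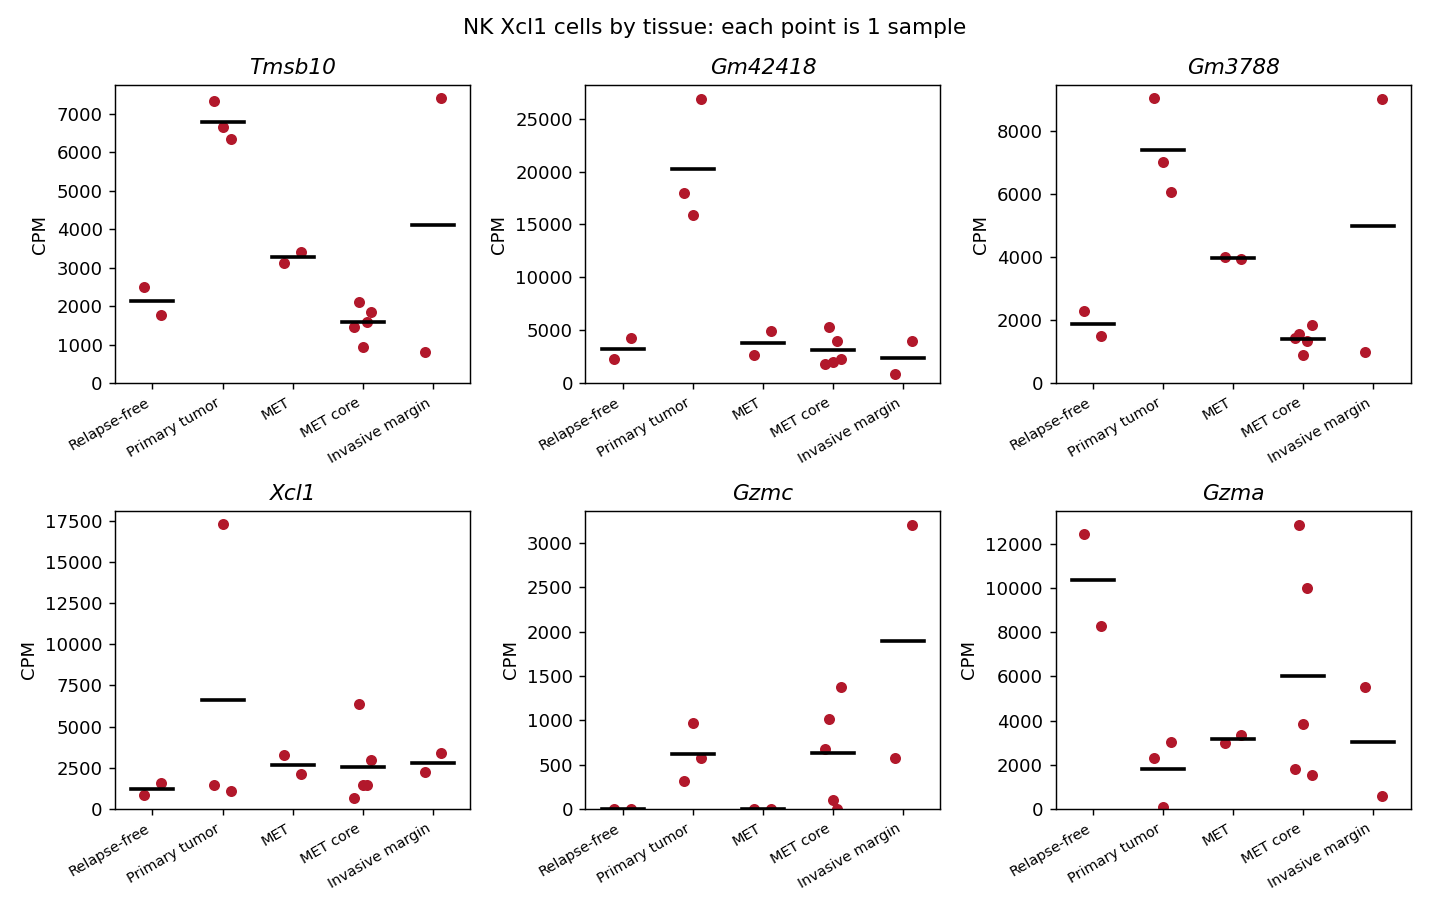
Levels of 6 genes in NK Xcl1 cells by tissue, in CPM on linear axes. Each point is 1 sample with at least 5 NK Xcl1 cells and bars are means. Tmsb10, Gm42418 and Gm3788 are shown because they were called between Primary tumor and MET core, so their separation here is no further support. Xcl1 and Gzma overlap between the 2 tissues.

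Xcl1 and Gzma did not pass between these tissues. In NK Xcl1 cells Xcl1 was at 1428, 17269 and 1058 CPM in the 3 Primary tumor samples, and at 646, 6338, 1466, 1464 and 2952 CPM in the 5 MET core samples (log2 fold change -1.50 ± 0.61, edgeR adjusted p = 0.569). The direction for Xcl1 was set by Primary tumor mouse 10, where 1 cell held 308 of the 322 Xcl1 UMIs. Without mouse 10 the log2 fold change was 0.98 ± 0.66 (edgeR adjusted p = 0.936). With cells of at least 1000 UMIs it was 1.24 in 4 against 2 samples (edgeR adjusted p = 0.935). That setting also left out mouse 10, with 4 such cells, and MET core mouse 30, with 2, so it is no separate check. Gzma averaged 1813 CPM ± 1523 in Primary tumor and 6002 ± 5128 in MET core (1.48 ± 0.64, edgeR adjusted p = 0.639). Its 2 Relapse-free values, 12461 and 8273 CPM, were among the higher ones.

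Against Relapse-free lung, Invasive margin and MET (n = 2 each), 0 genes passed in MET core by edgeR or DESeq2, while 34, 25 and 28 had an unadjusted edgeR p below 0.05. Gzmc, at 0 in the Relapse-free and MET samples that entered, had an edgeR adjusted p of 0.550 and 0.717 against them. With 2 samples a group, this does not show that the cells of these tissues were alike. Mouse 17 entered in both MET core and Invasive margin, and mouse 36 in both MET core and MET. The fit held no term for the mouse.

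Distal normal lung had no sample with 5 NK Xcl1 cells, so their expression there could not be compared. All NK cells together showed 0 of 382 genes past an adjusted p of 0.05 between MET core (n = 11) and Distal normal lung (n = 7) by edgeR, with 27 at an unadjusted p below 0.05. NK Ncr1 cells alone showed 0 of 300 (21 unadjusted, edgeR). With the mouse as a block, both counts were also 0.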

How the data were processed

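Plate-based single-cell RNA sequencing with UMIs was analysed from 148 plates. The authors mapped reads to the mm10 genome with HISAT, discarded reads with several positions, counted UMIs over exons, removed cells under 500 UMIs, and deposited raw UMI counts per gene and well with a cell annotation made by metacell clustering. The submitters' processing notes name bcl2fastq 2.15.0.4. Sorting removed dead cells and doublets, and no doublet caller was run here. Genes with overlapping exons on 1 strand had been merged under a joined symbol.

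From the deposited counts, wells were summed by mouse, tissue and annotation (at least 5 cells). Shares used samples with at least 10 NK cells and two-sided exact permutation tests, adjusted by Benjamini-Hochberg over 9 comparisons. Expression was fitted with edgeR 4.0.16 in R 4.3.3 (TMM, filterByExpr, quasi-likelihood test) and DESeq2 1.42.0 as an alternative; the scripts were tested on simulated data. Named genes were those of 23 lists, the 12 largest and 12 smallest changes past the fold rule, the calls of each contrast, and Xcl1, Ncr1, Gzmc, Gzma, Ccl5, Eomes and Xcr1 in all populations. The members and lists were chosen with earlier results of these data known.

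Replicate numbers name mice, so equal numbers pair tissues of 1 animal. In all-NK expression, the deviations of MET core and Distal normal lung of a mouse correlated at 0.0414 to 0.438 over 7 mice, and 5 of 7 correlated best with their own number. Plates of 1 mouse and tissue were pooled and count as 1 sample. Promoter windows came from RefSeq (GRCm38.p6), where 35 of 46 genes past the fold rule were listed, and gene positions from the GENCODE annotation of GRCm38. The Invasive margin of mouse 17 carries a photoactivation label that reads NON-MET, and its group follows the status label. Alternatives were another cell limit, a minimum of 1000 UMIs per cell, all immune cells as denominator, log2 ratios, other filters and tools, pairing by mouse, and leaving out each mouse.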

Additional observations from a re-analysis of the deposited data

Results flagged for a closer look

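In 8 groups of shares and 26 groups of gene levels of 4 to 10 samples, 6 values stood far from the others of their group by Dixon's test at its 95% limit, which chance alone would give in about 1 of 20 groups. Relapse-free mouse 29 had 12.5% NK Xcl1 cells among NK cells and 1.35% among immune cells, from 2 cells of 16 NK cells (exact 95% interval 1.55 to 38.3%). Invasive margin mouse 33 had 54.5% among NK cells, 6 of 11 cells with an exact interval of 23.4 to 83.3%, against at most 13.8% in the other 4 margin samples. In the NK Xcl1 cells of the 5 MET core samples, Ltb was at 1276 CPM in mouse 36 against 105 to 276 CPM in the others, and Txn2 was at 575 CPM in the same mouse against at most 140 CPM. Gm20559 was at 91.9 CPM in mouse 25, which is 1 UMI of 10887, and at 0 in the other 4. With the others at 0, any count is flagged, so the chance rate above does not hold for it.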

How the results depend on the processing

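With cells of at least 1000 UMIs, MET core against Distal normal became 32.1 points and did not pass, with few samples left. Invasive margin against Distal normal became 7.26 points and Primary tumor against MET core 28.9. Neither could pass with the few samples left, which in Primary tumor was mouse 38 alone. MET core against Invasive margin turned to 24.8 and Pre-MET against Control to -1.13. With all immune cells as the denominator, MET core against Distal normal, MET core against Invasive margin, Primary tumor against MET core and Pre-MET against Control gave 1.93, 0.244 (turned), 0.0678 and -0.160 (turned). As log2 ratios to NK Ncr1 cells, MET core against Distal normal gave 1.68, Invasive margin against Distal normal 1.60, Primary tumor against MET core 2.80 and MET core against Invasive margin 0.0872 (turned), with adjusted p of the exact tests of 0.0653 for the first 3. Without cells that had a CD3 UMI the values were 15.0, 14.6, 55.4 and 0.440 (turned). MET against Distal normal passed at 6.60 points with at least 5 NK cells, but not when also paired by mouse (5.83 points, exact p = 0.0586).

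With the replicate block, pairing tissues by mouse, MET core against Distal normal gave 18.1 points, Invasive margin against Distal normal 4.03 and MET core against Invasive margin 11.2 (turned); at 10 NK cells the block changed no other call. Leaving out each mouse in turn gave 11.4 to 15.5 points for MET core against Distal normal, 6.38 to 19.5 for Invasive margin against Distal normal, 32.7 to 51.9 for Primary tumor against MET core, 5.17 to 7.71 for MET against Distal normal, -5.90 to 7.34 for MET core against Invasive margin (0.167 without mouse 27 or 32) and -1.72 to 2.63 for Pre-MET against Control.

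Genes higher in NK Xcl1 cells numbered 11 with DESeq2, 4 without a filter, 62 with at least 10 cells of each name, 25 with cells of at least 1000 UMIs, 12 without CD3-positive cells, and 4 to 15 on leaving out each sample. Genes lower numbered 85 without a filter, 119 with at least 10 cells, and 37 to 63 on leaving out each sample. All NK cells of MET core against Distal normal gave 1 gene without a filter (Spp1) and 1 with cells of at least 1000 UMIs (Ly6a). The cause of these changes was not tested; fewer samples enter under the stricter cell limits. There were 198 NK Xcl1 cells in all, and 32 of the 46 samples with such cells held 1 to 4. Tmsb10 did not pass between MET core and Primary tumor with no filter on low counts.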
